A study of Mus musculus with 4 samples.

Results

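Skeletal muscle genes were examined in RNAseq of 4T1 mammary tumors. There were 10 of them, chosen by name as genes of the muscle contractile apparatus and its calcium and energy supply: Acta1, Tnnt3, Tnnc2, Myh4, Myh1, Mylpf, Ttn, Des, Ckm and Atp2a1. The choice was made with earlier results of these data known, so the number of them listed partly reflects that choice. Whole tumor gave values for 10608 genes and the whole series for 11217. Of the 10 muscle genes, 9 had a transcript in at least 1 whole tumor library, and none had a transcript in the tumor Treg values. With Control SMO 8 were listed, with LFPRLR SMO 7 and with both 6. Their levels were low in both libraries. Summed over transcripts, the 6 genes in both had log2 ratios of LFPRLR SMO over Control SMO from -0.15 (Tnnt3) to 2.95 (Ttn). Over the exon bases that both libraries covered, a measure added after seeing the data, 5 of them had log2 ratios from -0.16 to 0.57. Ttn had no such base, and Tnnc2, Ckm and Atp2a1 were listed in 1 library only.

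The tumors grew in female Foxp3+EGFP Balb/c mice, 8 weeks old, after injection of 4T1 cells into the mammary gland. The 4T1 line comes from a Balb/c mammary carcinoma, and in the host strain EGFP marks cells that express Foxp3, the transcription factor of regulatory T cells (Tregs). All mice received an oligomer from a minipump at 100 pmol/h for 12 days, either a Control SMO or an SMO against the long form of the prolactin receptor (LFPRLR SMO). An SMO, or splice modulating oligomer, is an antisense molecule that binds pre-mRNA and changes its splicing. Each library was made from the RNA of 6 mice in 1 tube, so there was 1 sample per group, no difference has a replicate check, and no SD or test is given. The deposited files give assembled transcripts with an FPKM (fragments per kilobase of transcript, scaled to library size) and a mean read depth, but no read counts, so the depth in reads is unknown.

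Whole tumor had 22481 transcripts on 9611 genes with Control SMO, and 31908 on 9710 genes in the LFPRLR SMO library. The additional LFPRLR SMO transcripts were mostly ones that fell on no gene, 11666 against 3815. The tumor Treg values, 4838 transcripts, did not differ in any value between the 2 treatment labels and were used as 1 set. Against their label, they held none of 20 T cell genes, 4 of 17 genes of a Treg signature and all 20 monocyte and macrophage genes. The whole tumor libraries held the genes of the labelled tissue, with 17 of 20 epithelial genes in each.

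Skeletal muscle contracts when myosin of the thick filament pulls on actin of the thin filament. Calcium released inside the fibre binds troponin on the thin filament and lets myosin attach, and pumps then return the calcium to its store. Titin and desmin hold the filaments in place, and creatine kinase renews the ATP they use. Fibres are fast or slow according to which myosin, troponin and calcium pump genes they express, and limb and trunk muscles of the mouse are largely fast.

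Acta1 encodes the actin of the skeletal muscle thin filament. It lies at chr8:123891769-123894751 on the minus strand of mm10. Its FPKM was 2.56 with Control SMO (deposited 95% bounds 1.79 and 3.39) and 3.80 with LFPRLR SMO (2.71 and 4.81), with 1 transcript in each. Those bounds come from the assembler, describe 1 library and say nothing of the spread between mice. Both Acta1 transcripts had 5 of the 6 introns of the longest annotated mRNA, and they covered 95.7% and 85.4% of it. Each also held 76 bases outside annotated exons. The log2 ratio of LFPRLR SMO over Control SMO was 0.55, and 0.57 over the bases covered in both. Of the words of 50 bases in the listed Acta1 exons, 2.35% also occur in other genes, among them Actb, the actin of all cells.

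Tnnt3 encodes the troponin subunit of fast fibres that ties troponin to tropomyosin. It lies at chr7:142498836-142516009 on the plus strand and was the highest of the 10 genes with Control SMO. Its summed FPKM was 7.65 (Control SMO) and 6.90 (LFPRLR SMO), from 3 transcripts in each. The log2 ratio was -0.15 summed over transcripts and -0.16 over the bases covered in both. The transcripts covered 93.2% and 90.5% of the mRNA.

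Tnnt3 transcripts are known to carry one or the other of a pair of exons near the 3′ end, each of 41 bases. The pair is shown because the listed transcripts differed in which of these exons they joined. They lie at chr7:142513665-142513705 and chr7:142514326-142514366, and capitals mark the positions at which the exons differ, 18 of 41 bases being identical.
Upstream exon: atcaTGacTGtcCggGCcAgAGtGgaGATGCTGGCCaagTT
Downstream exon: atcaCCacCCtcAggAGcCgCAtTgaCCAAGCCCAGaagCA
With Control SMO, 1 transcript of FPKM 3.99 spliced into the upstream exon and ended at its first base, so only the junction was covered. The other 2 Control SMO transcripts, of summed FPKM 3.66, held the downstream exon. With LFPRLR SMO all 3 transcripts, of summed FPKM 6.90, joined the downstream exon, 1 of them ending within it, and none joined the upstream one. An alternative exon of 39 bases in the 5′ part (chr7:142507750-142507788) was in 1 Control SMO transcript of FPKM 1.64 and in no LFPRLR SMO transcript. Both Control SMO transcripts with the downstream exon had 1 intron that is not annotated, which were the only such introns among all 162 introns of the 10 genes' transcripts. The assembler divides reads between such isoforms by estimate, and with 1 library per treatment the difference in exon use has no replicate check.

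Tnnc2 encodes the calcium-binding troponin subunit of fast fibres. It lies at chr2:164777161-164779967 on the minus strand. With Control SMO it had 1 transcript of FPKM 2.66 (bounds 1.33 and 4.17) with 5 annotated introns over 93.1% of the mRNA. With LFPRLR SMO it had no listed transcript. The lowest FPKM listed there for the 5941 transcripts within 20% of the Tnnc2 mRNA length was 0.866, so the library did list transcripts of that size below the Control SMO level. No fold is given for genes listed in 1 library only.

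Myh4 encodes the myosin heavy chain of the fastest fibres. It lies at chr11:67238029-67260446 on the plus strand, next to Myh1, the heavy chain of another fast fibre type, at chr11:67200052-67224575. Myh4 had 2 separate fragments in each library, at FPKM 1.29 and 1.52 (Control SMO) or 2.12 and 1.47 (LFPRLR SMO). They covered 42.1% and 44.4% of the mRNA, none of it before base 2283 of 6016. The summed FPKM was 2.81 and 3.58, a log2 ratio of 0.34, and the mean FPKM over the 2344 bases covered in both was 1.44 and 1.69, a log2 ratio of 0.23. Myh1 had no transcript in any library.

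Heavy chain genes are close copies, and reads can be placed on the wrong copy. Over the bases listed in both libraries Myh4 is 89.1% identical to Myh1, 88% to Myh8, the neonatal heavy chain, and 87% to Myh2. Of the Myh4 words of 50 bases, 21% occur in another gene and 12.9% in Myh1. A stretch of 120 bases in 1 coding exon at the start of the 3′ Control SMO fragment (chr11:67255573-67255692) shows how close they are. Capitals mark the 23 positions at which the 3 genes are not all alike. Myh1 differs from Myh4 at 13 of them and Myh2 at 15.
Myh4: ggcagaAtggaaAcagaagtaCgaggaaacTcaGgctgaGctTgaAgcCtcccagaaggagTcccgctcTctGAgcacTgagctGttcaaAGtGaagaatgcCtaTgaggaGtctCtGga
Myh1: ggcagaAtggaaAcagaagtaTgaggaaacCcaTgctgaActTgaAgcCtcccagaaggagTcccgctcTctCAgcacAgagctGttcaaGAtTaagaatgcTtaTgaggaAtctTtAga
Myh2: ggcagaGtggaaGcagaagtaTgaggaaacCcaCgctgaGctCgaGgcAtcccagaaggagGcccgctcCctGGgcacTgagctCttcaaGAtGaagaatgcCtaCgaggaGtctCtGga
How the authors' aligner divided reads that fit several copies was not tested, and the Myh4 values and the absence of Myh1 are uncertain to that extent. The 13 introns of the Myh4 fragments with Control SMO and the 14 with LFPRLR SMO all lay at annotated Myh4 positions. The fragments were assigned to Myh4 by shared introns, so this is no check of how reads were divided between copies.

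Mylpf encodes the regulatory light chain that sits on the neck of fast myosin. It lies at chr7:127208890-127214298 on the plus strand. Its FPKM was 3.99 with Control SMO and 4.66 with LFPRLR SMO, in 1 transcript each, a log2 ratio of 0.22. The Control SMO value lay above its own deposited upper bound of 3.95. The LFPRLR SMO transcript reached farther toward the 5′ end and covered 79.2% of the mRNA against 59.4%. Weighted by the share of the mRNA covered, the levels were 3.69 and 2.37, a log2 ratio of 0.62, and over the bases covered in both the ratio was 0.23.

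Ttn encodes titin, the giant protein that spans from Z-disc to M-band. It lies at chr2:76703980-76982547 on the minus strand, and its longest annotated mRNA has 106824 bases in 347 exons. With Control SMO 1 fragment of FPKM 1.05 covered 0.994% of that mRNA, near the 5′ end. With LFPRLR SMO 6 fragments with FPKM from 0.946 to 2.13 covered 5.16%, farther toward the 3′ end. No base was covered in both libraries. The summed FPKM, 1.05 and 8.76, gave a log2 ratio of 2.95. The exon-weighted FPKM was 0.010 and 0.073, 7.03-fold higher with LFPRLR SMO, a log2 ratio of 2.81. With 0.1 added to each value, as for the other ratios, the exon-weighted ratio was 0.65, since 0.1 exceeds both values. By its most abundant fragment alone the log2 ratio was 0.96.

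Des encodes desmin, the intermediate filament around the Z-disc, which smooth muscle cells and pericytes also express. It lies at chr1:75360329-75368579 on the plus strand. It was in 1 transcript of FPKM 2.21 with Control SMO and in 2 fragments of FPKM 3.29 and 1.56 with LFPRLR SMO. The summed log2 ratio was 1.10, past a factor of 2. The exon-weighted FPKM was 1.41 and 1.28, a log2 ratio of -0.13. Over the 1848 bases covered in both, the mean FPKM was 2.21 and 2.02. The difference in summed FPKM was thus between 1 transcript and 2 fragments, and by these 2 measures Des was not past a factor of 2. Its exon-weighted ratio lay near the median of all genes, -0.16.

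Ckm encodes the creatine kinase of muscle and lies at chr7:19404776-19422841 on the plus strand. It had no listed transcript with Control SMO and 1 transcript of FPKM 2.59 (bounds 1.38 and 3.61) with LFPRLR SMO, over 35.6% of the longest annotated mRNA. Atp2a1, the calcium pump of fast fibres at chr7:126445858-126463108 on the minus strand, showed the opposite listing. It had 1 transcript of FPKM 0.986 (bounds 0.422 and 1.55) over 32.0% of the mRNA with Control SMO and none with LFPRLR SMO.

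**Figure D1:**
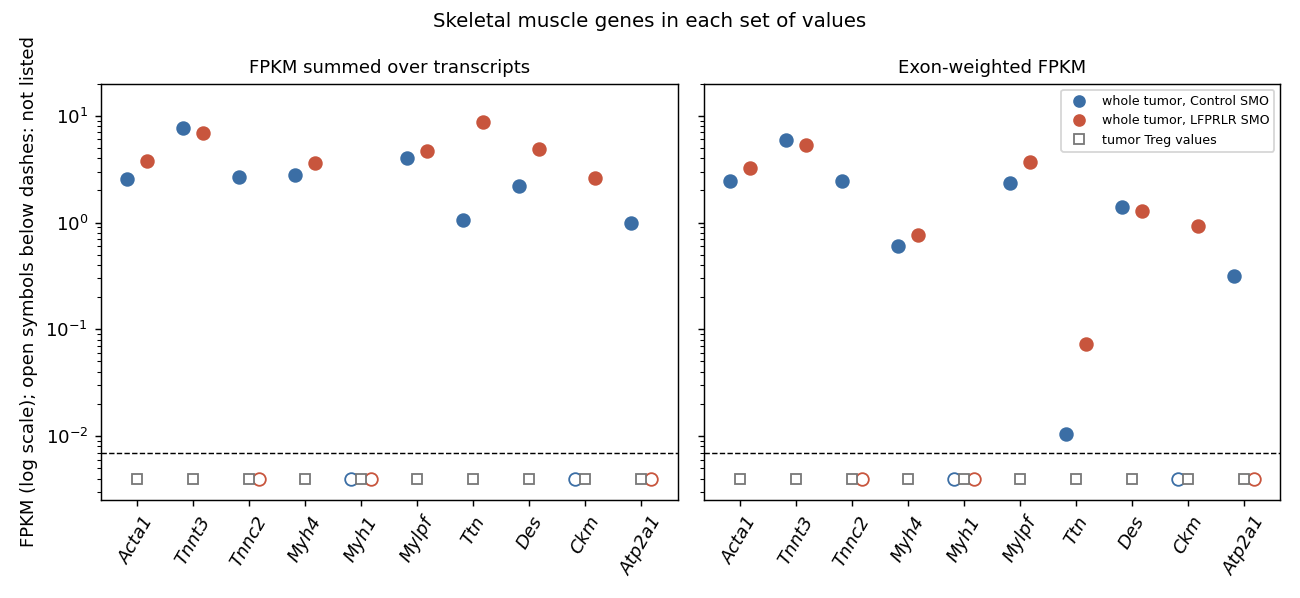
FPKM of the 10 muscle genes on a log axis, summed over transcripts (left) and weighted by the share of the mRNA covered (right), 1 pooled library per point. Open symbols below the dashed line are genes with no listed transcript, which include all 10 genes in the tumor Treg values. Ttn stands at 1.05 and 8.76 on the left and at 0.010 and 0.073 on the right.

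The ratios were read beside those of all genes. Counting a gene as higher or lower at a factor of 2 in summed FPKM, after adding 0.1 to each value, 3 of the 8 muscle genes with an FPKM of at least 1 were higher with LFPRLR SMO (Ckm, Des and Ttn), where 18.5% of all 10463 genes were. Lower was 1 of the 8, Tnnc2, where 17% of all genes were. By exon-weighted FPKM, 5 muscle genes reached 1. None of these was higher, where 5.74% of all 8902 genes were, and 1, again Tnnc2, was lower, where 8.53% were. Ckm and Ttn, at exon-weighted FPKM of 0.920 and 0.073 in the higher library, lay below 1 and were not counted by that measure. The median log2 ratio of the 6 genes listed in both was 0.45 summed and 0.35 exon-weighted. The medians over all genes were -0.08 and -0.16. The added 0.1 pulls the ratio of a low gene toward 0.

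**Figure D2:**
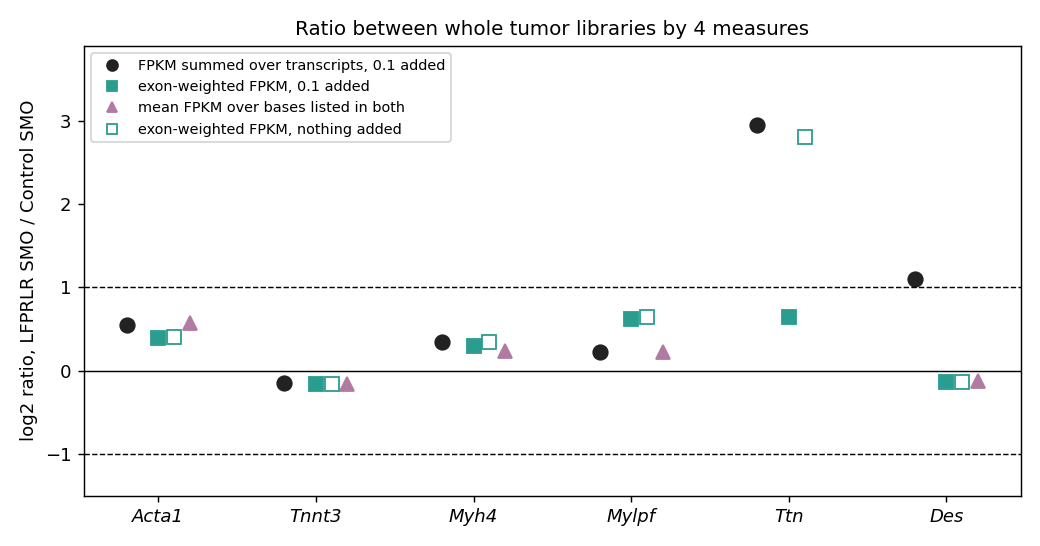
Log2 ratio of LFPRLR SMO over Control SMO for the 6 muscle genes listed in both whole tumor libraries, by 4 measures, with dashed lines at a factor of 2. By summed FPKM Des and Ttn lie past the upper line, at 1.10 and 2.95. Exon-weighted, Ttn lies at 2.81 with nothing added and at 0.65 with 0.1 added to values that are below 0.1, and it has no value over shared bases.

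Listing in 1 library was common at these levels. Of the 9 muscle genes listed in whole tumor, 3 were listed in 1 library only, where 17.9% of all listed genes were. Among the 6835 genes whose higher FPKM lay within the range of the muscle genes it was 24.9%, and among the 2323 genes from the lowest muscle gene to below 3 it was 57%. Tnnc2, Ckm and Atp2a1 were the only listed muscle genes below 3 in their higher library, and the limit of 3 was chosen after their values were seen. A gene without a transcript is therefore not shown to be unexpressed.

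Together the 10 genes took 0.00573% of FPKM multiplied by length with Control SMO and 0.00836% with LFPRLR SMO, counted over transcripts of at least 300 bases. Their summed FPKM added up to 23.9 and 35.1, of which Ttn gave 1.05 and 8.76, and their exon-weighted FPKM to 15.6 and 15.3. Read depth multiplied by length was 44254.5 and 57149.1 bases over the 10 genes, and 2147 and 13718 for Ttn alone. Most of that difference thus lay in Ttn, whose fragments had no base covered in both libraries. In rank among listed genes the muscle genes ran from percentile 1.45 (Atp2a1) to 65.7 (Tnnt3) with Control SMO. With LFPRLR SMO they ran from 21.5 (Ckm) to 70.8 (Ttn, summed over 6 fragments). In a whole tumor library, a change in the number of muscle fibres and a change in RNA per fibre cannot be told apart. The cells that gave these transcripts were not tested.

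Most of the listed transcripts were spliced at annotated introns. The 27 listed transcripts held 162 introns, of which 160 are annotated. Of the transcripts, 24 were placed on their gene by a shared intron and 3, all of Ttn and without an intron, by exon overlap. The match to annotated introns therefore follows in part from how transcripts were assigned, and no share over all genes is given beside it. Some also held bases outside the annotated exons of their gene. These were 76 bases in each Acta1 transcript and, with LFPRLR SMO, 97 in 1 Myh4 and 157 in 1 Tnnt3 transcript. Their mean read depth ran from 1.70 to 8.41.

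**Figure D3:**
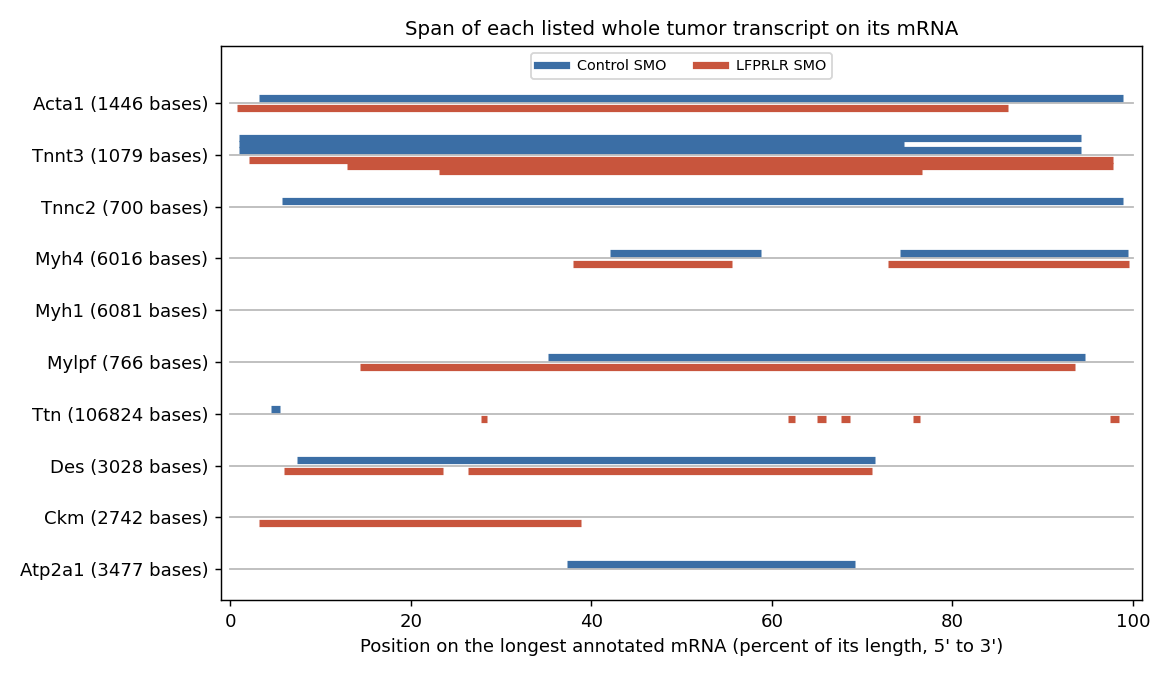
Each bar spans a listed whole tumor transcript on the longest annotated mRNA of its gene, from the 5′ end (0) to the 3′ end (100 percent), Control SMO above the line and LFPRLR SMO below it. Bars of Acta1, Tnnt3 and Tnnc2 run along most of the mRNA, Myh4 and Des are in pieces, and the Ttn pieces of the libraries do not meet.

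Assembled transcripts of Acta1, Tnnc2, Ckm and Tnnt3 began within 70 bases of an annotated start. The promoters of Acta1, Tnnc2 and Ckm are shown for that reason, as RefSeq sequence of GRCm38.p6, 250 bases up to the start. The Acta1 transcripts began 70 and 35 bases after the RefSeq start, the Tnnc2 transcript 33 and the Ckm transcript 20. Capitals mark 4 motifs searched on both strands: TATAAA, the E-box CANNTG bound by myogenic factors such as MyoD, the CArG box bound by serum response factor, and the MEF2 site.
Acta1 (chr8:123894776-123895025, minus strand): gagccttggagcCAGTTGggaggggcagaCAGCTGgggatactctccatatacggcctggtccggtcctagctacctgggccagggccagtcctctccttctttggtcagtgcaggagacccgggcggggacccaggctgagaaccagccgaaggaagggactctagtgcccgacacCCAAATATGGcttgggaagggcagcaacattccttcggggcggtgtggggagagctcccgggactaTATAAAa
Tnnc2 (chr2:164779735-164779984, minus strand): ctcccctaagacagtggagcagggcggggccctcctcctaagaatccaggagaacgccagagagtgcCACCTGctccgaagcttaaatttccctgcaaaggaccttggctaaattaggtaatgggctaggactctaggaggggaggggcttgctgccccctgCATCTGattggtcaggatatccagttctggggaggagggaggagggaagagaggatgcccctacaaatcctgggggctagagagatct
Ckm (chr7:19410844-19411093, plus strand): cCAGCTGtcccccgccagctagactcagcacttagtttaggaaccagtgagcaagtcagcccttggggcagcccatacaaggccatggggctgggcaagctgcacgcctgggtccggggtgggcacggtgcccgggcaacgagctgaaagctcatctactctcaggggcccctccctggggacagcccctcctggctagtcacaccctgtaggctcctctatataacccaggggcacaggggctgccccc
Acta1 holds a CArG box 73 bases before the start, 2 E-boxes and a TATAAA. Tnnc2 holds 2 E-boxes and Ckm 1 in this window. Among the 9 genes with a RefSeq promoter (all but Tnnt3), an E-box was in 8, where 66.2% of all 32851 promoters hold one, and TATAAA in 3, where 12.4% do. A CArG box was in 2 (Acta1 and Myh4), where 1.47% of promoters hold one, and a MEF2 site in 3 (Myh4, Myh1 and Ttn), where 2.92% do. In Myh4 and Myh1 the MEF2 site overlaps a TATAAA on the opposite strand. These matches describe letters in the window and not bound sites, and the genes were chosen as muscle genes.

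Other muscle genes were taken from 8 lists by role, 144 genes in all, and 39 had a transcript in whole tumor, 33 of them under Control SMO and 36 under LFPRLR SMO. The structural genes of the sarcomere were listed in part, and no share over all annotated genes is set beside these counts. Of the thick filament list 4 of 14 were listed, of the Z-disc list 5 of 21, of the titin and M-band list 3 of 12 and of the calcium list 5 of 26. Of the thin filament list 8 of 18 were listed, of energy metabolism 6 of 20 and of the muscle membrane 2 of 15. Among transcription factors 6 of 19 were listed in each library. None of the factors that define muscle precursors, Myod1, Myog, Myf5, Myf6 and Pax7, was among them.

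Over the 38 genes of these lists with an FPKM of at least 1, 10 were higher and 3 lower by the factor of 2 in summed FPKM, where 18.5% and 17% of all genes were. Over the 27 with an exon-weighted FPKM of at least 1, 1 was higher and 2 were lower, where 5.74% and 8.53% of all genes were. The median log2 ratio of genes listed in both was 0.20 summed and -0.07 exon-weighted. Tnni2, the inhibitory troponin subunit of fast fibres, was not listed with Control SMO and had an FPKM of 5.29 with LFPRLR SMO, opposite to its partner Tnnc2. Myl1, the fast essential light chain, was at 2.20 and 4.13, a log2 ratio of 0.88. Eno3, the enolase of muscle, was at 5.56 and 5.83. Cryab, a small heat shock protein of the Z-disc, was at 3.55 and 1.75, a log2 ratio of -0.98. The 1 exon-weighted rise was that of Tnni2, and Adssl1, a muscle enzyme of purine synthesis, fell beside Tnnc2, from 2.75 to 0.758 exon-weighted FPKM. Adssl1 was also listed in the tumor Treg values, at FPKM 7.0, and the part of cells other than muscle in its whole tumor values was not tested.

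By fibre type, more fast than slow fibre genes were listed. Of 15 fast fibre genes 7 were listed with Control SMO, 6 with LFPRLR SMO and 8 in either library. Most of these, Myh4, Mylpf, Tnnt3, Tnnc2 and Atp2a1, belong to the muscle genes examined above, which were chosen with earlier results known. The fast fibre count therefore partly repeats that choice and is no separate check of fibre type. Myl1 and Tnni2 were among the listed fast fibre genes outside it. The fast fibre genes Myh1, Myh2, Casq1, Actn3, Pvalb, Pgam2 and Myoz1 had no transcript in whole tumor. Of 13 slow fibre genes the 2 listed were Atp2a2 and Tpm3, which many cell types express, and Myh7, Tnnt1, Tnni1 and Tnnc1 had no transcript. Of 9 embryonic and neonatal muscle genes only Ncam1, which nerve also expresses, was listed, with summed FPKM of 3.26 and 16.7 and exon-weighted FPKM of 0.583 and 1.39. Of the heart genes Tnnt2 was listed, at 64.1 and 55.9, while Myh6, Tnni3 and Mybpc3 had no transcript.

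Markers of other cells that could hold a shared gene are given beside these. Smooth muscle and myofibroblast genes, a list that includes Des, had 15 of 18 members listed with Control SMO, and 16 in the LFPRLR SMO library. Of the 16 with an FPKM of at least 1, 3 were higher by the factor of 2 in summed FPKM (Des, Cnn1 and Myh11) and none was lower, where 18.5% and 17% of all genes were, and the median log2 ratio of those in both libraries was 0.22. By exon-weighted FPKM 1 of 13 was higher and none was lower, where 5.74% and 8.53% of all genes were. Cald1, the caldesmon of actin filaments and the highest of the list, was at 93.2 and 89.5, and Myl9, a smooth muscle light chain, at 3.52 and 2.50. Fat pad genes were listed for 7 of 20 and 8. Fabp4, the fatty acid carrier of adipocytes, was at 17.2 and 17.7. The part of smooth muscle in the Des values was not tested.

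None of the 10 muscle genes had a transcript in the tumor Treg values, and no tumor Treg transcript overlapped an exon of any of them by even 1 base. Read against the background, 71% of all 10608 whole tumor genes were not listed there, and 81.3% of the genes in the FPKM range of the muscle genes were not. Of the 144 genes of the muscle lists 6 were listed: Aldoa at 42.7, Atp2a2 at 8.40, Adssl1 at 7.0, Tpm3 at 5.54, Asph at 2.71 and Tpm1 at 1.89. Aldoa, Atp2a2, Tpm3, Tpm1 and Asph are also expressed outside muscle. None of the 15 fast fibre genes was among them. Whole tumor and tumor Treg FPKM came from different programs and were normalized separately, so their levels are not compared.

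**Figure D4:**
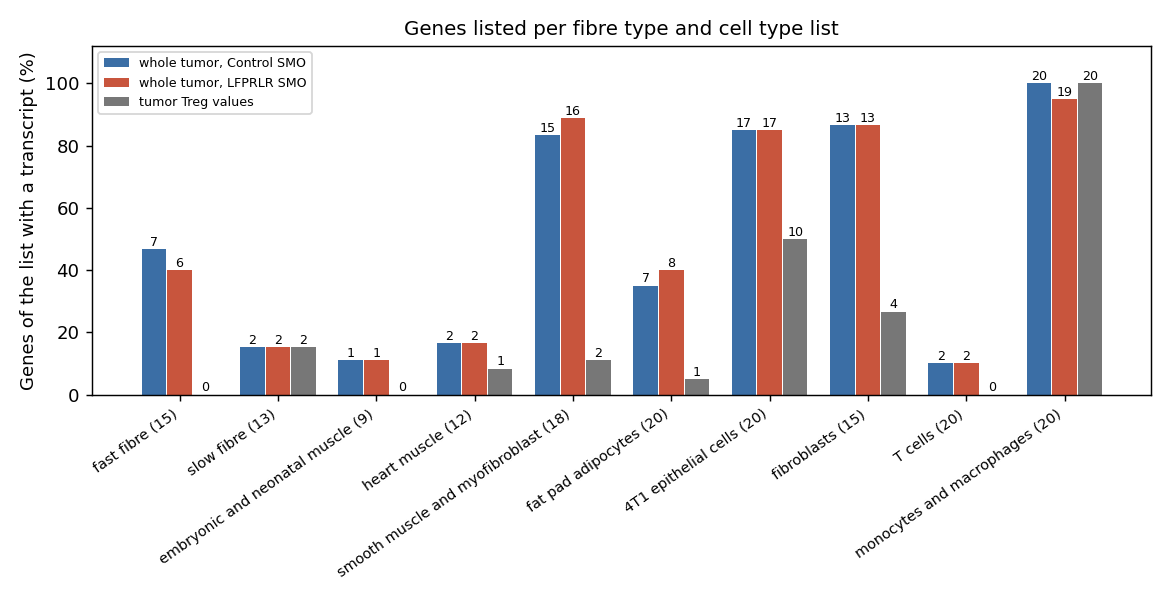
Share of each list's genes with a transcript, in percent, with the number of genes above each bar and the size of the list in parentheses. Fast fibre genes are listed in both whole tumor libraries (7 and 6 of 15) and in none of the tumor Treg values, slow fibre genes 2 of 13 in each set. The fast fibre list shares genes with the muscle genes chosen at the outset.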

How the data were processed

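Total RNA of whole 4T1 tumors, or of EGFP-sorted tumor Tregs, was depleted of rRNA and made into libraries with a Kapa kit. Each of the 4 libraries was a pool of 6 mice. The deposited files hold assembled transcripts on mm10, with FPKM and coverage (mean read depth) as other text in the attribute field, and an assembler score, which was not used. The submitters' processing notes name StringTie 1.2.3, HISAT2 2.0.4, Cufflinks and Cuffdiff 2.0.2. The Cufflinks version is not given in the sources used here.

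Transcripts were assigned to GENCODE M21 genes (GRCm38, the assembly of mm10) by a shared intron or, failing that, 50% of exon bases. FPKM were summed per gene. The exon-weighted FPKM multiplies each by the gene's exon bases it holds, divided by the longest annotated mRNA. Ratios were log2((LFPRLR SMO + 0.1)/(Control SMO + 0.1)), with a factor of 2 and a minimum FPKM of 1. With 1 sample per group no test was possible. Named genes were the 10 muscle genes, for each list its 2 most abundant genes and 2 most changed genes (exon-weighted FPKM of at least 1 in a library), muscle list genes found in the tumor Treg values, and the 10 genes most extreme in the direction of the muscle genes. The genes, the 22 lists and the measures were chosen with earlier results of these data known. Genes named for having no transcript, and Cnn1, Myh11, Myl9, Col1a2, Tie1, Robo4 and Erg, lie outside this rule and were chosen after their values were seen. Counting and assignment were tested on simulated data. Alternatives covered the pseudocount, value per gene, scale, filter and factor, and 3 added after seeing the data. Promoters came from RefSeq tables of GRCm38.p6. Python 3.11.15, numpy 2.4.6, Biopython 1.88 and matplotlib 3.10.9 were used. A gene of the heart list is not reported here.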

Additional observations from a re-analysis of the deposited data

How the results depend on the processing

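No paired analysis was possible because each group was 1 library. Of the 10 muscle genes, 3 were higher and 1 lower by summed FPKM, and the median log2 ratio of those in both libraries was 0.45. The number higher was 0 by exon-weighted FPKM and 1 with the most abundant transcript only or with an FPKM of at least 5. The number lower was 2 by TPM over transcripts of at least 300 bases, by coverage or with no minimum FPKM, and 0 by TPM over all transcripts or with an FPKM of at least 5. TPM over all transcripts added 4.55 to every log2 ratio and made the median 3.27. TPM over transcripts of at least 300 bases added 0.15, and by coverage the median of all genes was -0.20. For the 8 muscle lists together, 10 were higher and 3 lower. The number higher was 1 by exon-weighted FPKM, 24 by TPM over all transcripts and 4 with an FPKM of at least 5. The number lower was 0 by TPM over all transcripts, 5 by coverage and 1 with an FPKM of at least 5, and the median by TPM over all transcripts was 3.34. Of all genes, 18.5% were higher and 17% lower by summed FPKM, and 5.74% and 8.53% by exon-weighted FPKM. Such shares are not given for the other alternatives, so their counts describe only how the calls depend on the processing. Des turned from 1.10 to -0.13 by exon-weighted FPKM, to -0.14 by that measure with no pseudocount and to -0.12 over bases covered in both, alternatives added after seeing the data. The median of the T cell list turned to -0.20 with transcripts sharing an intron only. Other causes were not tested. Of the values of the 10 genes and of single genes under alternatives, 91 stayed within a factor of 1.5, 19 moved farther and 3 reversed. Leaving out Des, added after seeing the data, left 2 higher and 1 lower. Without read counts or replicates, levels near the lowest listed FPKM of 0.211 and 0.247 cannot be told from absence.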

Other observations

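Other stromal genes gave a view of what else the whole tumor libraries held, described as levels with no test. Fibroblast genes were listed for 13 of 15 in each library. None was past a factor of 2 in summed FPKM, where 18.5% of all genes were higher and 17% lower. The collagen genes lay in both directions, Col3a1 at FPKM 278 and 361, Col1a1 at 198 and 206 and Col1a2 at 224 and 127 (Control SMO, then LFPRLR SMO). Endothelial genes were listed for 12 of 14 and 10 of 14, and 4 of the 12 were lower by a factor of 2 in summed FPKM (Eng, Tie1, Robo4 and Erg) and 0 higher, where 17% and 18.5% of all genes were. By exon-weighted FPKM 0 of 9 were past that factor, where 5.74% of all genes were higher and 8.53% lower. Eng, a TGF-beta co-receptor, was at 17.7 and 5.04 summed and at 5.60 and 4.51 exon-weighted, and Flt1, a VEGF receptor, at 8.76 and 12.4 summed and at 3.10 and 3.05 exon-weighted. Of 10 peripheral nerve genes 3 and 4 were listed, with the myelin gene Pmp22 at 1.88 and 2.55. Monocyte and macrophage genes were listed for 20 and 19 of 20. Of these, 4 were lower by a factor of 2 with LFPRLR SMO by summed FPKM, where 17% of all genes were, and 1 by exon-weighted FPKM, where 8.53% were. That gene was Fcer1g, an Fc receptor subunit, at exon-weighted FPKM of 18.1 and 6.78.

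The 10 genes with the largest exon-weighted rise, of 2717 candidates, were mostly small RNAs such as Snord15a, not listed with Control SMO and at an exon-weighted FPKM of 444 with LFPRLR SMO, and 0 of the 10 were in the muscle lists.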
